A study of Mus musculus with 8 samples.

Results

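The 38 genes described here act in G2 phase and mitosis, the stretch of the cell cycle in which a cell with replicated DNA condenses its chromosomes, attaches them to a spindle and divides. They were named by symbol from their roles, with earlier results of these data known. Each gene was represented by the probe set, a group of short array probes for a transcript, that had the highest mean signal among those assigned to that symbol alone. Such a probe set was found for 37 of the 38 genes, and all 37 passed the filter on low signals. They stood among 10989 genes tested and 18193 genes with such a probe set. Ccnb1, which encodes cyclin B1, had no probe set of its own in the annotation used here, and its level was not analysed.

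RNA of primary chondrocytes, the cells that build cartilage, was measured on 8 arrays. The cells were freed by collagenase and trypsin from the rib cages of FVB mouse embryos at stage E18.5, shortly before birth. Embryos of 4 litters were grouped by genotype, so that each litter gave 1 sample of Hoxc8 transgenic embryos (coded TR) and 1 sample of control embryos (coded TA and labelled wild type). Hoxc8 encodes a homeodomain transcription factor known for its part in giving ribs and vertebrae their identity. The promoter that drives the transgene, and the number and sex of the embryos in a sample, are not given in the sources used here. The litters are called litters 1 to 4, after the replicate numbers. For litter 1 the pairing was not seen in the signals. Deviations from the genotype mean correlated at 0.0251 between its 2 samples, and at up to 0.0630 with another litter.

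The values are MAS5 signals, a linear brightness scaled to the same trimmed mean of 500 on every array, and array medians lay between 106.7 and 121.3. With 4 arrays a genotype, the number of arrays limits the precision. Hoxc8 itself gave 4096, 3400, 3810 and 4235 in transgenic samples of litters 1, 2, 3 and 4, against 4112, 3066, 3755 and 3143 in control samples. The genotypes overlapped, and the difference of 0.15 log2 (SE 0.12, n = 4 each) was not called (limma adjusted p = 0.9998, exact two-sided permutation p = 0.229, smallest possible 0.0286). Whether this probe set reads the transgene is not given, so it checks the labels little. All 10 chondrocyte markers examined passed the signal filter, and so did all 10 skeletal muscle markers.

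Entry into mitosis is driven by CDK1 bound to cyclins, which CDC25 phosphatases switch on and which acts with Polo-like and Aurora kinases. The spindle checkpoint then holds the anaphase-promoting complex in check until every kinetochore, the protein plate on a centromere, is attached to microtubules. In the growth plate these genes are transcribed in the dividing columnar chondrocytes and are switched off as the cells enlarge. Many of them are known to be repressed in resting cells and activated late in the cycle through a cell cycle homology region (CHR) in the promoter, which is bound by MuvB complexes, often together with CCAAT boxes, which are bound by NF-Y.

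The promoters were therefore searched for these elements, a property of the genes that their selection did not use. RefSeq windows of 300 bases (build GRCm38.p6, 250 bases before and 50 after a transcript start) were found for 32 of the 38 genes, 34 windows in all, Ccnb1 included. Ccna2, Tpx2, Cdc25c, Kif20a, Aurkb and Foxm1 had none among the windows searched, which left out those on chr18. The CHR was taken as TTTGAA or TTCGAA and the CCAAT box as CCAAT, each on both strands, and a base could belong to more than 1 match. A CHR was found in 27 of the 34 windows (79.4%), against 19.2% of all 32851 windows searched. A CCAAT box was also found in 27 windows (79.4%), against 37.4% of all windows. Both stood in 24 windows (70.6%), against 7.53% of all and 7.11% of the 21263 windows of protein-coding genes.

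The elements also shared an arrangement. In all 24 windows with both, a CCAAT box lay upstream of a CHR. Over all windows this order was seen in 1296 of the 2472 with both, or 3.95% of all windows. A window with several boxes meets it more easily. A CHR lay between 60 bases before and 50 bases after the start in 25 windows (73.5%, against 5.90% of all), and 18 windows held 2 or more CCAAT boxes (52.9%, against 11.7%). By contrast TATAAA stood in 1 window, that of Kif2c (2.94%, against 13.6%). A CHR without a CCAAT box was found for Kif2c, Anln and Ndc80, a CCAAT box without a CHR for Nek2, Cenpe and Ccnb1, and neither for Nuf2, Nusap1, Mad2l1 and Birc5. These are matches of letters in a window; no binding was measured, and the genes share their roles by selection.

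**Figure D1:**
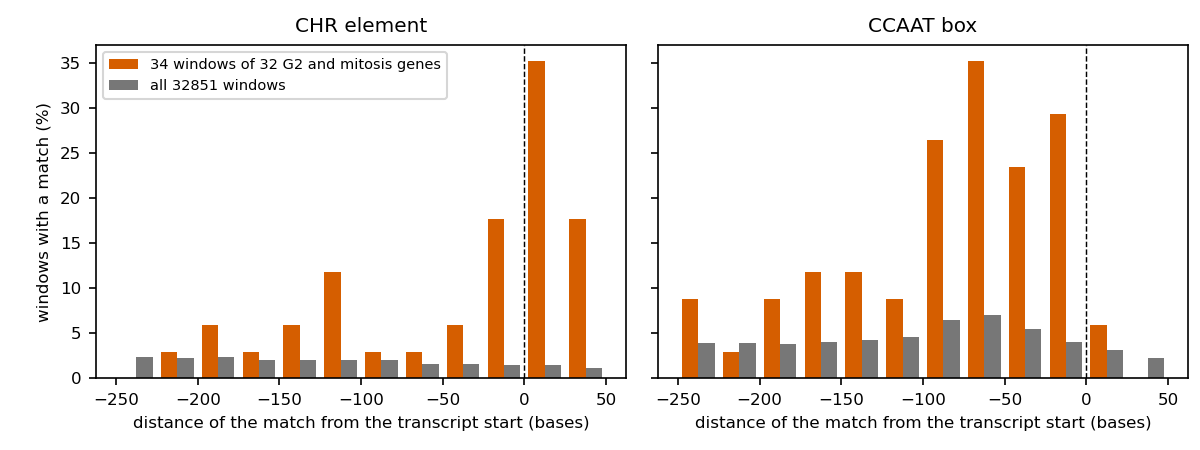
Share of promoter windows with a match, in percent, against the distance of the match from the transcript start in bins of 25 bases, for the CHR (left) and the CCAAT box (right). Orange bars stand for the 34 windows of G2 and mitosis genes and grey bars for all 32851 windows; the CHR peaks at 35.3% in the first 25 bases after the start, against 1.43% of all windows, and the CCAAT box at 35.3% between 75 and 50 bases before it, against 6.99%.

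The windows of 8 genes show the arrangement and its exceptions, with CHR and CCAAT matches of either strand in capitals, so that ATTGG and TTCAAA are the same elements read from the other strand. Cdk1, Ccnb2, Plk1, Cdc20, Cenpf and Top2a hold both elements. Nek2 holds only CCAAT boxes and Nuf2 no match at all. Both were called between litters, as described further on, and so was Cdc20, which holds both elements. A relation between the elements and the litter calls was not tested. Each sequence runs 5′ to 3′ along the gene's strand and is taken from RefSeq, GRCm38.p6.
Cdk1, chr10:69352863-69353162, strand -: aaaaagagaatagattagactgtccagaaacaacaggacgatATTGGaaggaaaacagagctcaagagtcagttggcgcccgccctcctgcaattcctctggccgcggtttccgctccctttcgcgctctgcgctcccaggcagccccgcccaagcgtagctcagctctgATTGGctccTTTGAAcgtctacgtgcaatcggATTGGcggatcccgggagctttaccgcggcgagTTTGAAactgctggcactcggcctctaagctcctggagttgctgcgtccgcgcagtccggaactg
Ccnb2, chr9:70421505-70421804, strand -: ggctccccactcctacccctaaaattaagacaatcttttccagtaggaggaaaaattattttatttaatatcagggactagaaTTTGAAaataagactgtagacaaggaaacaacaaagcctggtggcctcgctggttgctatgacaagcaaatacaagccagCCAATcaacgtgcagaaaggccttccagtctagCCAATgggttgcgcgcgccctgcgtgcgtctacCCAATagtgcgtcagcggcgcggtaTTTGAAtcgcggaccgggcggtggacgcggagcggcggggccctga
Plk1, chr7:122159185-122159484, strand +: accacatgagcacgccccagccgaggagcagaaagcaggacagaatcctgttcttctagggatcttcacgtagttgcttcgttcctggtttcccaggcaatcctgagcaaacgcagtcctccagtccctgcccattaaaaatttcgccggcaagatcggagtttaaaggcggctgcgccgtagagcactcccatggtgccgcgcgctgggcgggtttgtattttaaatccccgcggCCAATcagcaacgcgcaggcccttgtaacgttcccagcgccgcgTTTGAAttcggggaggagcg
Cdc20, chr4:118437294-118437593, strand -: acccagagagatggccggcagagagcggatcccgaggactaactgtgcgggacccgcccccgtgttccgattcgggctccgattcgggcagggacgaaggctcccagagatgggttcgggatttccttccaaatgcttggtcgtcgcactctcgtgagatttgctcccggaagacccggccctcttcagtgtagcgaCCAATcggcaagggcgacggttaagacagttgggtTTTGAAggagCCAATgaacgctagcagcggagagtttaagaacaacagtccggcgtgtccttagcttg
Cenpf, chr1:189688037-189688336, strand -: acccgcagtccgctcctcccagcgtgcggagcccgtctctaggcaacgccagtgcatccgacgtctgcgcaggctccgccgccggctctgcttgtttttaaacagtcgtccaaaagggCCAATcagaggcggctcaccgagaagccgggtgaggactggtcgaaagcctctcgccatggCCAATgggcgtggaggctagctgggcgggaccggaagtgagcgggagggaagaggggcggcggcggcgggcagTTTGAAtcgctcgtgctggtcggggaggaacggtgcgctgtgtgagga
Top2a, chr11:99024140-99024439, strand -: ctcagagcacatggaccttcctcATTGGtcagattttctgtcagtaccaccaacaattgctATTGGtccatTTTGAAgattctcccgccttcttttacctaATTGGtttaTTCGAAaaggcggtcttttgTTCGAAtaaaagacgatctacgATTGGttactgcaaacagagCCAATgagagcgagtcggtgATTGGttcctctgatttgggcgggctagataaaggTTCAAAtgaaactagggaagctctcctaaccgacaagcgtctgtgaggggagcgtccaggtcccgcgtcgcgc
Nek2, chr1:191821223-191821522, strand +: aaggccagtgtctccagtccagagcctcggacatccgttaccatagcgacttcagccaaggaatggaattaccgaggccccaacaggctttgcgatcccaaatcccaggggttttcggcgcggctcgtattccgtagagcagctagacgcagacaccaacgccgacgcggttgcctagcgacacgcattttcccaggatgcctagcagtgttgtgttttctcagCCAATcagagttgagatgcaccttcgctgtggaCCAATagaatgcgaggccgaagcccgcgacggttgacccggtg
Nuf2, chr1:169531415-169531714, strand -: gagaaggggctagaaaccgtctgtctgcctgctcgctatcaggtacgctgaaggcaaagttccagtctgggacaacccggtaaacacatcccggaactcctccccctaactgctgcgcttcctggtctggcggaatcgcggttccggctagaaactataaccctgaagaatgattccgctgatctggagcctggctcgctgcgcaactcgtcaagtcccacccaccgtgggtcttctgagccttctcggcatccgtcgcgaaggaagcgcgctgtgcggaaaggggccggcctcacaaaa

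In the Cdk1 window the CHR matches begin at -71 and -15, counted from the first transcribed base as 1, with CCAAT boxes at -208, -80 and -48. In Ccnb2 the boxes at -87, -54 and -21 precede a CHR at 5, and in Plk1 a box at -14 precedes a CHR at 31. Top2a had the most CHR matches of the 34 windows, 4, and 6 CCAAT boxes.

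Between genotypes, the transcripts of the G2 and mitosis genes differed by little in these samples. By limma, 0 of the 37 genes were called at an adjusted p of 0.05, higher or lower, and the background was 0% of all genes tested. No gene of the 37 had an unadjusted p under 0.05, against 100 of all 10989, and with the litter as a block the counts were 0 and 338. The fitted difference, transgenic minus control, was above 0 for 19 genes and below 0 for 18 (51.4% above, against 50.7% of all genes). Its median was 0.00 log2, the same as over all genes at this rounding. It ran from -0.17 for Kif23 to 0.21 for Nuf2. The signals of the genotypes overlapped for every one of the 37 genes, and 0.992% of all genes had signals that did not overlap.

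The arrays set a bound on how large a difference could be. The 95% interval of the difference lay within 1.5-fold either way for 35 of the 37 genes, against 82.3% of all genes, and within 2-fold for all 37, against 98.1%. The exceptions at 1.5-fold were Nek2, with an interval from 0.615-fold to 1.30-fold, and Nuf2, from 0.790-fold to 1.70-fold. All these intervals, and the SEs of single genes, are from the fit without litter, so they include the spread between litters. With the litter as a block the SE was 0.13 log2 for Nek2 and 0.14 log2 for Nuf2, against 0.25 log2 for each without it. These are bulk samples, in which fewer dividing cells and less RNA per dividing cell cannot be told apart.

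**Figure D2:**
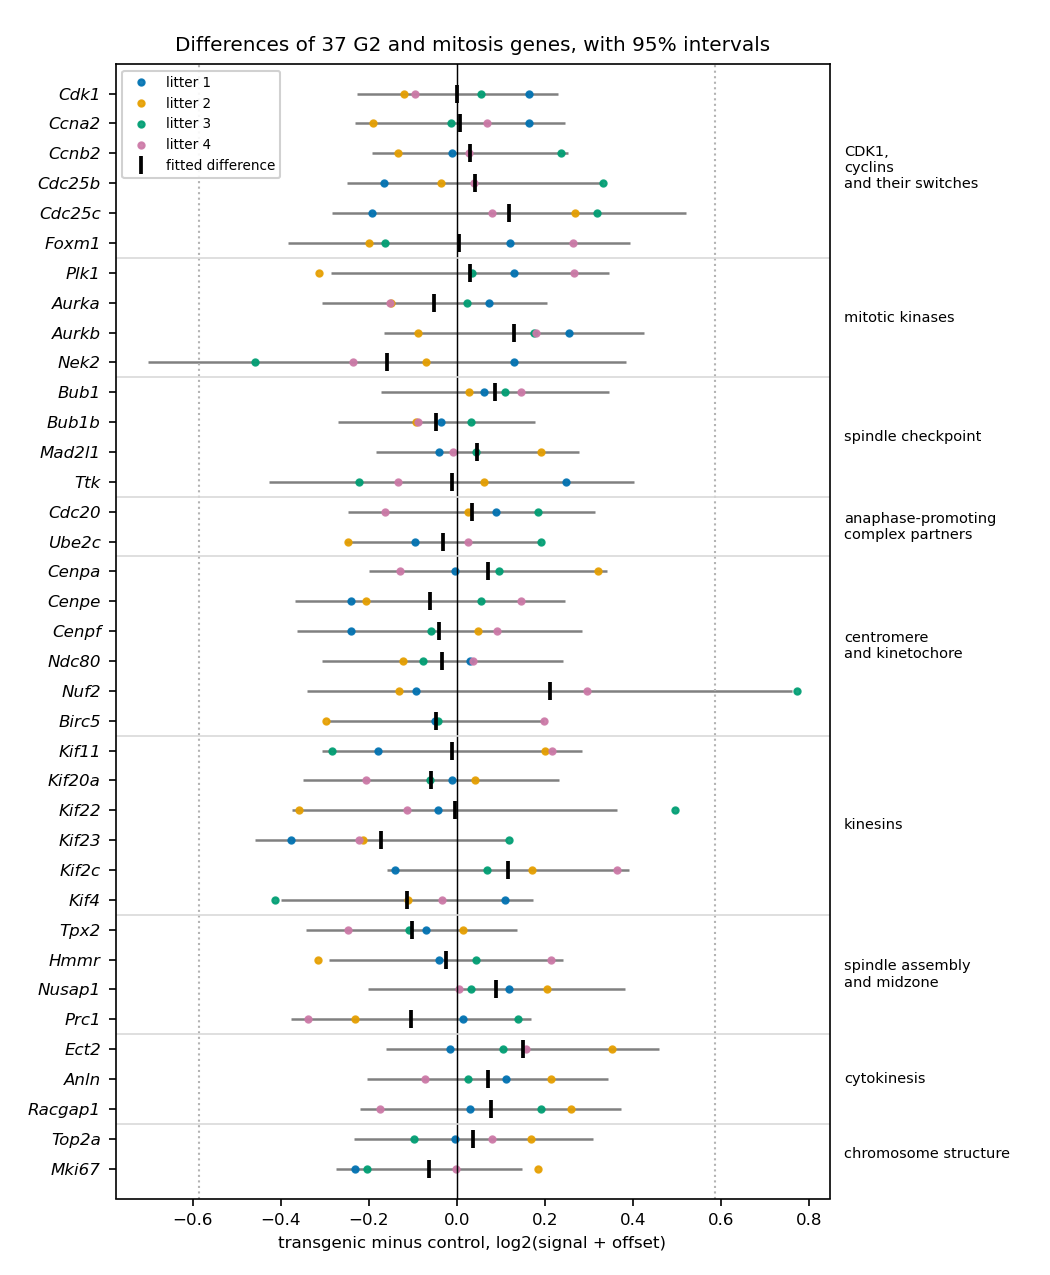
Fitted difference of each of the 37 genes, transgenic minus control, on the log2(signal + offset) axis (black ticks), with 95% intervals (grey lines) and the difference within each litter (coloured points), grouped by role. Dotted lines mark 1.5-fold either way. The intervals are from the fit without litter. Those of Nek2 and Nuf2 alone reach past the dotted lines, and every interval includes 0.

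Among CDK1, the cyclins and their switches, all 6 measured genes had differences at or above 0, between 0.00 and 0.12 log2. Cdk1, the kinase that drives mitotic entry, had signals of 5270, 5133, 4932 and 5599 in transgenic samples of litters 1, 2, 3 and 4, against 4703, 5580, 4752 and 5978 in control samples. The transgenic sample was higher in litters 1 and 3 and lower in litters 2 and 4, and the 95% interval ran from 0.855-fold to 1.17-fold. Ccna2 and Ccnb2, the genes of cyclins A2 and B2, stood at 0.01 and 0.03 log2. Another tested probe set of Ccna2 stood at -0.13 log2, the opposite sign. Cdc25b and Cdc25c, phosphatases that activate CDK1, stood at 0.04 and 0.12 log2, and Foxm1, a transcription factor that joins B-Myb on mitotic promoters, at 0.01 log2 (SE 0.18).

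The 4 mitotic kinases were split, with 2 above and 2 below 0. Aurka, the Aurora kinase of spindle poles, had signals of 889, 934, 840 and 822 in transgenic samples, against 844, 1039, 827 and 915 in control samples. These ranges overlapped, and the difference was -0.05 log2 (SE 0.12). Plk1, a Polo-like kinase that acts from entry to cytokinesis, stood at 0.03 log2. Aurkb, the kinase of the chromosomal passenger complex, which corrects faulty attachments, stood at 0.13 log2 (SE 0.14), and another of its probe sets at -0.04 log2. Nek2, a kinase that separates the centrosomes, stood at -0.16 log2 (SE 0.25).

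The spindle checkpoint genes differed by at most 0.09 log2. Mad2l1, whose product inhibits CDC20 at unattached kinetochores, had signals of 2780, 2900, 2861 and 3223 in transgenic samples, against 2862, 2540, 2774 and 3242 in control samples. Transgenic samples were lower in litters 1 and 4 and higher in litters 2 and 3 (0.05 log2, SE 0.11). Bub1, a checkpoint kinase that also marks centromeric histone, had 968, 1049, 1112 and 1247 in transgenic samples, against 926, 1029, 1030 and 1125 in control samples. It was higher in the transgenic sample of each litter, by 0.09 log2 in the fit, and was not called (SE 0.12, limma adjusted p = 0.9998). With the litter as a block the SE was 0.09 log2 and the limma adjusted p again 0.9998. Only Bub1 and Nusap1 had 4 same-signed litter differences, 5.41% of the 37 genes, against 10.7% of all genes. Bub1b, the BubR1 gene, stood at -0.05 log2 and Ttk, the Mps1 kinase gene, at -0.01 log2.

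Of the partners of the anaphase-promoting complex, Cdc20, its mitotic activator, had signals of 6843, 6425, 7020 and 4717 in transgenic samples, against 6431, 6318, 6172 and 5288 in control samples. The sample of litter 4 was the lowest of each genotype, while the genotypes overlapped (0.03 log2, SE 0.13). Ube2c, which encodes the ubiquitin-conjugating enzyme of the complex, stood at -0.03 log2.

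Among the 6 centromere and kinetochore genes, 2 stood above and 4 below 0. Birc5, or survivin, a subunit of the chromosomal passenger complex, had signals of 3788, 3471, 3502 and 4628 in transgenic samples, against 3921, 4273, 3609 and 4033 in control samples. The transgenic sample was higher in litter 4 alone (-0.05 log2, SE 0.11). Cenpa, the histone variant that defines centromeres, stood at 0.07 log2, the kinetochore motor gene Cenpe at -0.06 log2 and Ndc80, which encodes the microtubule-binding arm of the kinetochore, at -0.03 log2.

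Of the 6 kinesin genes, 5 had a difference below 0, all between -0.17 and -0.01 log2 and none called. Kif22, a chromokinesin that pushes chromosome arms outward, had signals of 4833, 4454, 4654 and 3411 in transgenic samples, against 4984, 5720, 3295 and 3690 in control samples. The control values spanned the transgenic ones, and the difference was -0.01 log2 (SE 0.17). Kif23, a subunit of centralspindlin, had the smallest unadjusted p of the 37 genes, 0.210 by limma (difference -0.17 log2, SE 0.13, adjusted p = 0.9998). It had 739, 698, 987 and 788 in transgenic samples and 966, 813, 907 and 923 in control samples, lower in the transgenic sample of 3 litters and higher in litter 3. Another of its probe sets stood at 0.24 log2, the opposite sign. Kif2c, a microtubule depolymerase gene, was the kinesin gene above 0, at 0.12 log2 (SE 0.13). Kif4, a chromokinesin gene, stood at -0.11, Kif20a, which acts in cytokinesis, at -0.06 and Kif11, whose motor separates the spindle poles, at -0.01 log2.

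Genes of spindle assembly and the midzone lay between -0.10 and 0.09 log2. Nusap1, which encodes a microtubule-bundling protein, had signals of 2024, 1809, 2021 and 2363 in transgenic samples, against 1864, 1568, 1976 and 2355 in control samples. The transgenic sample was higher in each litter, by 0.09 log2 in the fit, and the gene was not called (SE 0.13, limma adjusted p = 0.9998). With the litter as a block the SE was 0.08 log2 and the limma adjusted p again 0.9998. Tpx2, an activator of Aurora A, and Prc1, which crosslinks midzone microtubules, both stood at -0.10 log2, and Hmmr, a spindle protein gene, at -0.03 log2.

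All 3 cytokinesis genes had differences above 0, none of them called. Anln, or anillin, a scaffold of the contractile ring, had signals of 2369, 2438, 2568 and 2858 in transgenic samples, against 2191, 2098, 2525 and 3005 in control samples. It was higher in the transgenic sample of litters 1, 2 and 3 and lower in litter 4 (0.07 log2, SE 0.13). Ect2, the exchange factor that activates RhoA at the cleavage furrow, stood at 0.15 log2 (SE 0.14), and Racgap1, the partner of Kif23 in centralspindlin, at 0.08 log2 (SE 0.14). Another tested probe set of Racgap1 stood at -0.07 log2, the opposite sign.

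Of the genes of chromosome structure, Mki67, which encodes the proliferation marker Ki-67, had signals of 4833, 5298, 4861 and 5227 in transgenic samples, against 5679, 4660, 5607 and 5234 in control samples. The control samples spanned the transgenic ones (-0.06 log2, SE 0.10). Top2a, the topoisomerase that untangles sister chromatids, stood at 0.04 log2 (SE 0.13).

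Several probe sets of a gene often differed in sign. In all, 68 probe sets of the 37 genes were tested, and 20 genes had more than 1. For 14 of these 20 the probe sets had differences of opposite sign between genotypes. They were Aurkb, Bub1b, Ccna2, Cdc20, Cenpf, Hmmr, Kif11, Kif22, Kif23, Kif2c, Prc1, Racgap1, Tpx2 and Ttk. For these 14 genes the direction of the difference depended on the probe set read.

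Between litters, 3 of the 37 genes passed, Nek2, Nuf2 and Cdc20 (limma F-test over litters, fitted together with genotype, adjusted p under 0.05). That was 8.11% of them, against 10.9% of all genes tested. The order of these shares depended on the setting. Without genotype in the model they were 18.9% of the 37 genes and 13.98% of all genes, and with arrays centred on the median 16.2% and 10.3%. The litter range of the mean log2 level had a median of 0.32 over the 37 genes and 0.37 over all genes.

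Nek2 had signals of 260, 349, 390 and 471 in transgenic samples of litters 1, 2, 3 and 4, against 235, 368, 544 and 559 in control samples. Litter 1 was lowest and litter 4 highest in both genotypes, a 1.99-fold span of litter means (limma F-test adjusted p = 0.0190). A second tested probe set of Nek2 did not show this. Its litter means were 253, 242, 267 and 238, in no common order with the first (limma F-test over all tested probe sets, adjusted p = 0.927). The mean of both probe sets gave an adjusted p of 0.163.

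Nuf2, which encodes a partner of Ndc80 in the kinetochore's microtubule-binding complex, had 398, 810, 796 and 793 in transgenic samples, against 427, 890, 457 and 643 in control samples. Both samples of litter 1 lay low, and in litter 3 the control sample lay near litter 1 while the transgenic sample did not. The litter means spanned 2.01-fold (limma F-test adjusted p = 0.0317), and no other probe set of Nuf2 was assigned to it alone.

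Cdc20, with the values given above, had litter means of 6637, 6372, 6596 and 5003 (1.33-fold, limma F-test adjusted p = 0.0479). A second tested probe set gave 2674, 2678, 2486 and 2450 (limma F-test over all tested probe sets, adjusted p = 0.674), and without litter 4 the adjusted p was 0.896. The calls of Nek2 and Nuf2 also rested on single samples. Cdc20 was called without the control sample of litter 4 and lost its call without any other single sample, its adjusted p then lying between 0.0660 and 0.336. Without the control sample of litter 2, Nek2, Nuf2 and Cdc20 all lost their calls. Leaving out any single sample also lowered the count of calls over all genes, and it left that litter with a single sample. The lost calls are therefore not particular to these genes. Nek2 was also not called without the control sample of litter 1 (0.0902) or of litter 3 (0.0563), nor Nuf2 without the transgenic sample of litter 1 (0.133) or of litter 2 (0.0642). With eBayes fitted without an intensity trend, 0 of the 37 genes and 0 of all 10989 passed.

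**Figure D3:**
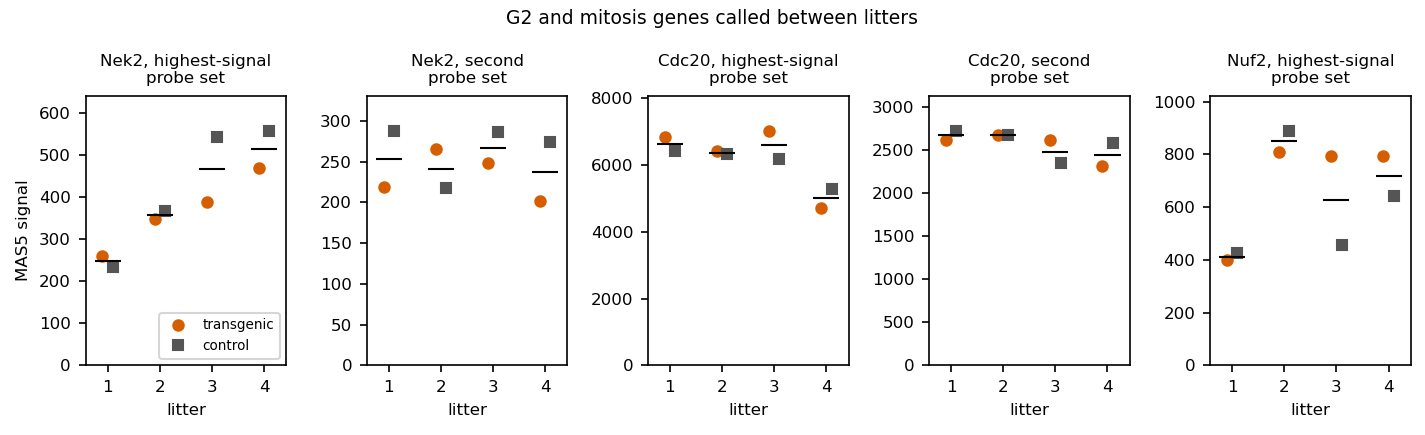
MAS5 signals of Nek2, Cdc20 and Nuf2 in each litter, transgenic (orange circles) and control (grey squares), with litter means as black lines; Nek2 and Cdc20 are shown by their highest-signal probe set and by a second tested probe set. Litter means of the highest-signal probe set of Nek2 lie between 248 and 515, and those of the second between 238 and 267.

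The next genes by litter p missed the threshold. Ttk had 452, 659, 455 and 620 in transgenic samples, against 377, 631, 534 and 682 in control samples, higher in litters 2 and 4 (limma F-test adjusted p = 0.0516). Nusap1, whose values are given above, stood at 0.0573. Cenpf, a large kinetochore protein that builds up in G2, had 1200, 1255, 1235 and 1782 in transgenic samples, against 1421, 1213, 1288 and 1672 in control samples, highest in litter 4 of both genotypes (0.0598). Top2a stood at 0.0606, and the other 30 genes lay above it.

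Litter 4 was high for many of these genes by small amounts. It had the highest litter mean for 22 of the 37 genes (59.5%), against 32.2% of all genes, and was highest in both genotypes for 11 (29.7%), against 16.6%. Litters 1, 2 and 3 were highest for 6, 5 and 4 genes (16.2%, 13.5% and 10.8%), against 17.5%, 24.5% and 25.8% of all genes. The mean deviation of the 37 genes from their own means over 8 arrays was -0.05, -0.02, -0.01 and 0.09 log2 in transgenic samples of litters 1, 2, 3 and 4, against -0.04, 0.00, -0.05 and 0.08 log2 in control samples. With all tested probe sets of a gene averaged, litter 4 was highest for 16 of the 37 genes (43.2%), against 30.7% of all genes. Of the 15 genes that were highest in another litter, 6 had their lowest litter mean in litter 4, namely Cdc20, Kif22, Plk1, Aurkb, Racgap1 and Ube2c. For Kif22 this depended on the probe set read. Its second tested probe set had litter means of 913, 970, 899 and 992, highest in litter 4. The second tested probe sets of Cdc20, Aurkb and Racgap1 were lowest in litter 4, as the first were.

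**Figure D4:**
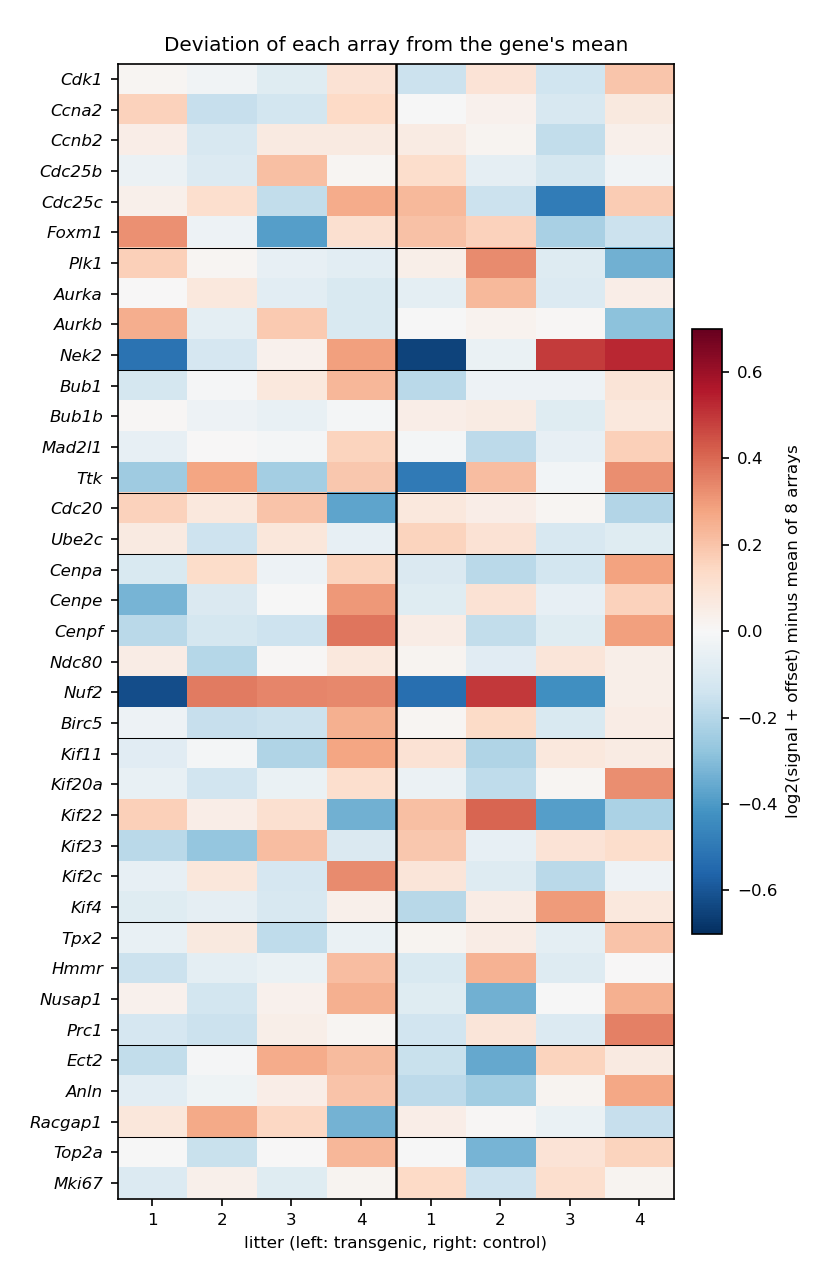
Deviation of each array from the gene's mean over 8 arrays, in log2(signal + offset), for the 37 genes in the order of their roles; transgenic arrays of litters 1 to 4 are the 4 columns on the left and control arrays the 4 on the right. Red cells are above and blue cells below the mean; litter 4 is red in both genotypes for 24 genes and blue in both for 6 (Cdc20, Kif22, Plk1, Aurkb, Racgap1 and Ube2c).

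Across the 8 arrays the 37 genes varied together only weakly. The median Pearson correlation over their 666 pairs was 0.13, against 0.01 over pairs of all genes tested, and 19.5% of the pairs lay above 0.5, against 14.7%. These points share litters and array scaling, and the correlations are given as a description. Cenpf had the highest mean correlation with the other genes, 0.27, and Cdc20 the lowest, -0.31.

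Other measures moved with litter 4. The ratio of 5′ to 3′ signal for Gapdh, read from control probe sets, a sign of RNA integrity, was 1.14 in the transgenic and 1.17 in the control sample of litter 4, against 1.29 to 1.36 and 1.26 to 1.35 in the transgenic and control samples of the other litters. For beta-actin it was 0.475 and 0.512 in litter 4, the lowest of each genotype. Genes induced by tissue dissociation were at their lowest there, with mean deviations of -0.37 log2 in the transgenic and -0.48 log2 in the control sample, and all 14 of 14 passed between litters. Summed signals of the 10 chondrocyte markers were 271062 to 308565 in transgenic and 260567 to 341382 in control samples, lowest in litter 4 of both genotypes, and 3 of the 10 (Acan, Col9a2 and Sox9) passed between litters. By mean deviation the 5 markers of proliferative zone chondrocytes were also lowest there, at -0.22 and -0.15 log2 in the transgenic and control sample, and 3 of 5 passed. Their summed signal was lowest in litter 4 in transgenic samples only. In control samples it was 67042 in litter 4, against 62502 in litter 3. Summed signals of the 10 skeletal muscle markers were 27881 to 41847 in transgenic and 29131 to 44032 in control samples, highest in litter 4 of both genotypes, with 5 of 10 called. By mean deviation the highest transgenic sample was that of litter 1, at 0.19 log2, against 0.18 log2 in litter 4. Of the 10 erythroid markers, 6 had a probe set of their own and 3 passed the filter. The sum over those 6 was also highest in litter 4, at 6328 in the transgenic and 7157 in the control sample. The sum over all 8 neutrophil markers, 4 of them tested, was highest there too, at 3782 and 5749. That over all 7 endothelial markers, 5 of them tested, was lowest, at 893 and 902. The sum over the 8 perichondrium and fibroblast markers was lowest there too, at 157751 and 175954, with 3 of 8 called between litters. By mean deviation these 8 were lowest in litter 2 of both genotypes. Macrophage and osteoblast sums were lowest in litter 4 in transgenic samples only. The part of any of these in the litter pattern of the mitotic genes was not tested.

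**Figure D5:**
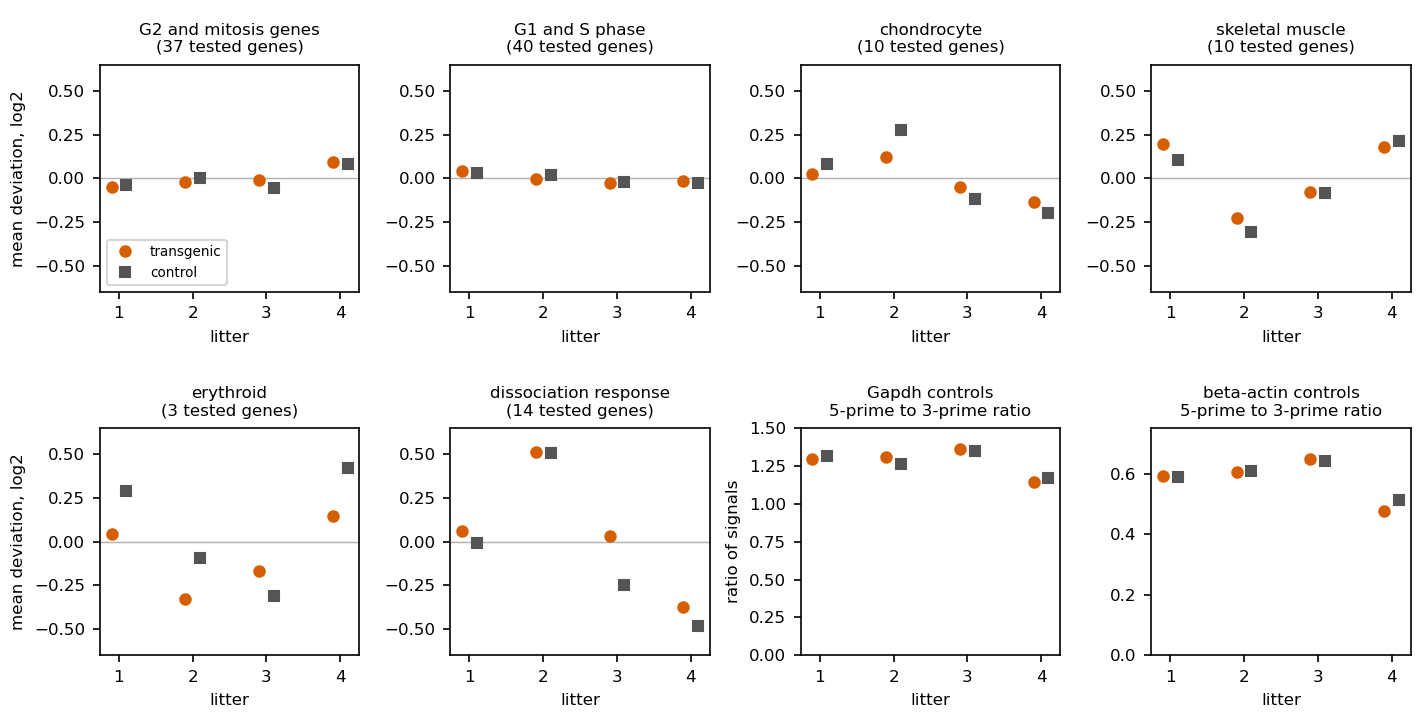
Mean deviation in log2(signal + offset) of 6 gene lists by litter, for transgenic (orange circles) and control (grey squares) samples, and the 5′ to 3′ signal ratios of Gapdh and beta-actin controls. In litter 4 the G2 and mitosis genes are 0.09 and 0.08 log2 above their mean, the dissociation genes -0.37 and -0.48 log2 from theirs, and both ratios are at their lowest.

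The genes of G1 and S phase, which license and copy DNA earlier in the cycle, lay near their mean in litter 4. Their mean deviations there were -0.01 log2 in the transgenic and -0.03 log2 in the control sample over 40 tested genes; the difference from the mitotic genes was not tested. Of these 40, 18 had a difference above 0 between genotypes and 22 below, with a median of -0.01 log2, and 0 passed. Between litters 3 passed, Cdt1, Mcm2 and Pole. Cdt1, the licensing factor of replication origins, had 3690, 4037, 3734 and 2075 in transgenic samples, against 3604, 4433, 3821 and 2113 in control samples, lowest in litter 4 of both genotypes (limma F-test adjusted p = 3.61e-04).

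The other mitotic genes examined also held no call between genotypes, with or without the litter as a block. Of 32 further kinetochore and centromere genes, 19 stood above and 13 below 0, with a median of 0.01 log2, and of 21 tested genes of the spindle and cytokinesis 10 and 11, with a median of 0.00 log2. Of 13 genes of condensin, separase and cohesin protection 9 stood above 0, of 26 genes of mitotic entry and exit 10, and of 10 genes of the MuvB and B-Myb complexes 8, with medians of 0.02, -0.02 and 0.09 log2. Mastl, the Greatwall kinase gene, had 277, 301, 307 and 294 in transgenic samples, against 302, 178, 226 and 179 in control samples, a difference of 0.41 log2 (SE 0.18, limma adjusted p = 0.9998). Mybl2, which encodes B-Myb, had 211, 177, 172 and 168 in transgenic samples, against 92.1, 157, 165 and 155 in control samples (0.34 log2, SE 0.20, limma adjusted p = 0.9998), lowest in the control sample of litter 1.

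Between litters, 10 of the 102 tested genes of these 5 lists passed (9.80%), against 10.9% of all genes. In litter 4 the mean deviations, transgenic then control, were 0.06 and 0.05 log2 for further kinetochore and centromere genes. They were 0.06 and 0.03 log2 for spindle and cytokinesis genes. The signs differed between genotypes for condensin, separase and cohesin protection (0.08 and -0.06), mitotic entry and exit (-0.04 and 0.01) and MuvB and B-Myb (0.14 and -0.02 log2). Wee1, the kinase that holds CDK1 inactive, had 708, 672, 729 and 352 in transgenic samples, against 790, 954, 807 and 542 in control samples, lowest in litter 4 of both genotypes (limma F-test adjusted p = 0.0137). Pkmyt1, its membrane-bound relative, was also lowest there, with 314 in the transgenic and 401 in the control sample (adjusted p = 0.0454). Pttg1, or securin, the inhibitor of separase, was highest in litter 4, with 3754 in the transgenic and 3485 in the control sample (adjusted p = 0.0379). Cit, the citron kinase gene of cytokinesis, and Ncapd2, a condensin subunit gene, were higher in litters 1 and 2 than in litters 3 and 4 in both genotypes (adjusted p = 0.0147 and 0.0179). The others were Incenp, Bora, Haus1, Espl1 and Lmnb1.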

How the data were processed

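RNA of 8 samples was measured on Affymetrix arrays. The deposited table holds linear intensity values, which the authors made with MAS5 per the submitters' processing notes, of no stated version. On each array the mean after trimming 2% at each end was 500. The members and all gene lists were chosen with earlier results of these data known.

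Of 45101 probe sets, 34945 had 1 symbol in the platform annotation of 2016, 932 several and 9160 none, besides 64 control probe sets. Only the first kind was used to name genes. Signals were taken as log2(signal + 22.2), where 22.2 is the 20th percentile of all values, which understates changes of dim genes. The filter kept probe sets whose mean reached 110.0 (the median of such means), which left 22519 probe sets and 10989 genes. limma 3.58.1 in R 4.3.3 (lmFit, eBayes with trend, two-sided) compared genotypes without a covariate and litters by F-test with genotype in the model, with Benjamini-Hochberg adjustment over all genes at 0.05. These steps were tested on simulated data, whose noise was that left after genotype and litter were fitted. The genotype step was thus not tested under the litter spread of the real data.

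Values in every sample are given for the member of highest signal in each role group, the 6 members of smallest litter p, members with 4 same-signed litter differences, and Hoxc8, and for at most the 2 genes of smallest unadjusted p in each test from other lists; Kif23 was added after its values were seen. Lists covered further mitotic genes, G1 and S phase genes, and markers of chondrocytes, muscle, blood and other cells and of dissociation. Each replicate number stands for a litter in the labels and so pairs 2 samples; across probe sets the deviations from the genotype mean in a litter correlated at 0.0251, 0.434, 0.376 and 0.379 for litters 1 to 4, and at most at 0.0630, 0.0133, 0.0303 and 0.0042 with a sample of another litter, so the pairing was not seen in litter 1. Alternatives were the litter as a replicate block, other offsets, filters, scalings, eBayes settings and probe set rules, and leaving out arrays or litters; the litter 4 count under other offsets, filters, scalings and probe set rules was added after seeing the data. Promoter motifs were counted by exact letters in RefSeq windows outside chr18.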

Additional observations from a re-analysis of the deposited data

Results flagged for a closer look

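Within a genotype, 7 of the 76 groups of 4 samples examined (37 genes and Hoxc8 in 2 genotypes) held a sample far from the other 3, where chance gives about 1 in 20, or 3.8. Cenpf had 1782 in the transgenic sample of litter 4, above the next value of 1255, and Cenpa had 2750 in the control sample of litter 4, above the next value of 2103. Aurkb was lowest in the control sample of litter 4, at 434, with the next value at 533. Nuf2 was lowest in the transgenic sample of litter 1, at 398, with the next value at 793. For Ccnb2 the low samples were transgenic litter 2, at 2006 (next 2244), and control litter 3, at 1926 (next 2204). Kif11 was lowest in the control sample of litter 2, at 631, with the next value at 766. Of the 7, 3 came from litter 4.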

How the results depend on the processing

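Between genotypes, 0 of the 37 genes and 0 of all genes tested passed in each of 23 other settings, the replicate block by litter included (0 genes called with it, smallest adjusted p of the 37 genes 0.9998). The median difference ran from -0.03 to 0.03 log2, the count above 0 from 15 to 23 and Hoxc8 from 0.05 to 0.23 log2. Of 846 differences of the 37 genes under these settings 86, of 28 genes, had the opposite sign. Kif23 gave 0.03 log2 with its probe sets averaged. Between litters the count of the 37 genes was 7 without genotype in the model (18.9%, against 13.98% of all genes; Cenpf, Nusap1, Top2a and Ttk added), 1 without a filter (2.70%, against 4.33%), 6 of 32 with a filter at the 75th percentile (18.8%, against 19.5%), 6 with arrays centred on the median (16.2%, against 10.3%) and 0 without an intensity trend. With quantile normalization the shares were 10.8% and 9.99%. Leaving out an array or a litter gave 0 to 4 of the 37 genes and 430 to 1659 of all genes. The count over all genes was 788 without a filter and 0 without a trend, and the cause of these shifts was not tested. Litter 4 was highest for 16 to 24 of the 37 genes under other offsets, scalings and probe set rules and without a filter, and for 19 of 32 with the stricter filter; the share over all genes ran from 30.7% to 36.9%. With 2 arrays a litter, litter calls rest on single samples.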
